A study of Mus musculus with 5 samples.

Results

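The cells described here are inner medullary barcodes rich in Cryab, Aqp1 and Bst1, the genes taken as markers of the thin limbs of Henle's loop. They were chosen in the inner medulla library among the 898 barcodes with at least 200 detected genes. A barcode entered when Cryab, Aqp1 and Bst1 together gave at least 5 UMIs (unique molecular identifiers, one per captured mRNA molecule) and at least 2% of its UMIs, when Aqp2 gave under 1%, and when Plvap, Emcn, Ly6c1 and Pecam1, all endothelial genes, gave 0 UMIs. This held for 95 of 898 barcodes, or 10.6% (exact 95% Clopper-Pearson interval 8.64 to 12.8%). They are called members below, and the remaining 803 barcodes of the same library are the barcodes they were set against.

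The study profiled kidneys of wild-type C56BL/6N mice (the strain name as labelled) by Drop-seq, a method that pairs single cells with barcoded beads in droplets. Microdissected cortex, outer medulla and inner medulla gave 1 library each, and whole kidney gave 2; no treatment is named, and the labels give neither the age nor the number of animals. The inner medulla library carried 869732 UMIs over 4035 barcodes, of which 520663 fell in the 898 barcodes with at least 200 genes, with a median of 440 UMIs. In the other 4 libraries, 2418 to 3305 barcodes passed the same gene minimum at median depths of 466 to 517 UMIs, and at most 1 of them in any library shared its barcode sequence with an inner medullary cell. With 1 library per region there is no replicate, so no test was run. All intervals below are exact, at 95%, and cover counting error only.

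The thin limbs are the narrow stretches of the nephron that turn in the medulla as Henle's loop. The descending limb of long loops is permeable to water through aquaporin-1, the product of Aqp1, and the ascending limb passes chloride but little water. Their cells are flat, hold few mitochondria and live in the hypertonic interstitium, where small heat shock proteins such as αB-crystallin, encoded by Cryab, are abundant. Bst1 encodes a cell-surface enzyme that makes cyclic ADP-ribose.

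The genes of the rule were distributed unevenly over the 95 members. Cryab was present in all of them, with 1 to 53 UMIs per barcode, a median of 10 and a sum of 1237. Aqp1 was found in 54 members with 236 UMIs in all and up to 19 in 1 barcode, and Bst1 in 38 members with 75 UMIs and up to 5. All 3 genes were seen together in 35 members, so most barcodes entered mainly through Cryab, which took a median of 2.3% of their UMIs. In the other 803 barcodes Cryab had 3004 UMIs over 560 barcodes, Aqp1 138 over 71 and Bst1 27 over 22.

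Levels of these genes, as UMIs scaled to a common total over the summed barcodes (CPM, counts per 1e6 UMIs), were 26734 in members and 6332 in the other barcodes for Cryab, 5100 and 291 for Aqp1, and 1621 and 56.9 for Bst1. These differences follow from the rule and are a description only. Barcodes with under 100 genes, used here as a measure of free RNA and called low-gene barcodes, carried 8586 CPM of Cryab, 1738 of Aqp1 and 353 of Bst1. The Cryab level of collecting duct barcodes, 7273 CPM, was below that of these low-gene barcodes, whereas the members' was above it. After each cell was thinned to 200 UMIs, which no member fell short of, Aqp1 was seen in 48.8% of members, against 7.06% of proximal tubule barcodes and 1.31% of collecting duct barcodes. Without thinning these shares were 56.8, 14.4 and 3.41%, at median depths of 401, 446.5 and 518 UMIs. Aqp1 is a gene of the rule, so its shares in members are also a description only.

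**Figure D1:**
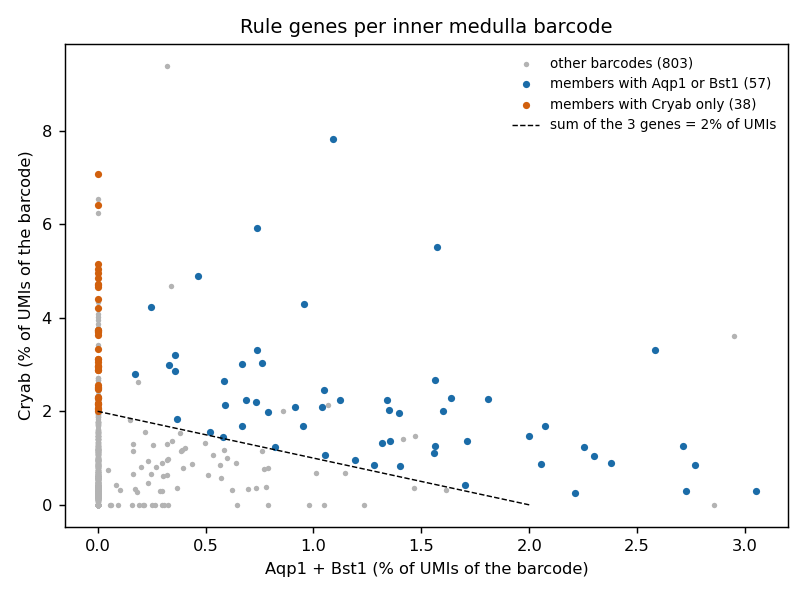
Share of UMIs from Cryab (vertical axis, %) against the share from Aqp1 and Bst1 together (horizontal axis, %) for each of the 898 inner medulla barcodes. Blue points are the 57 members with an Aqp1 or Bst1 UMI, and orange points the 38 members with Cryab alone. Grey points are the 803 other barcodes, and the dashed line is the 2% threshold. Grey points above it were kept out by Aqp2, by an endothelial UMI or by both.

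The threshold cut through a continuous range. The members nearest to it had 5 of 249, 14 of 688 and 45 of 2192 UMIs from the 3 genes, or 2.01 to 2.05%. The nearest barcodes outside had 8 of 401, 7 of 356 and 6 of 306, or 1.96 to 2.0%. Of 148 barcodes past both limits on the rule genes, 27 were left out for an endothelial UMI, 25 for Aqp2 and 1 for both. Among the members, 19 still carried Aqp2, with 28 UMIs in all. Members were slightly shallower than the rest, at a median of 401 UMIs (235 to 2192) and 306 genes, against 448 UMIs. Scrublet, a doublet caller, marked 4 of the 898 barcodes (0.445%) and no member; no barcode was removed. Of the 45 barcodes with the highest doublet scores 10 were members, and the median score was 0.0584 in members and 0.0532 in the others.

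The same rule found next to no barcodes outside the inner medulla. It held for 0 of 3072 cortical cells, 0 of 2418 and 0 of 3305 cells of the whole kidney libraries, and 4 of 2428 outer medullary cells (0.165%, interval 0.0449 to 0.421%). Taken as at most 3 counts, the 0 of these 3 libraries allow shares of up to 0.0977, 0.124 and 0.0908%, and the exact upper limits are 0.120, 0.152 and 0.112%. No cortical or whole kidney cell had more than 1.58% of its UMIs from the 3 genes, while the highest inner medullary cell had 9.71%. Aqp1 itself was not confined to the medulla: over all cells it stood at 158 CPM in cortex, 169 in outer medulla and 136 and 175 in whole kidney, where proximal tubule also carries it. Cryab stood at 45.3, 182, 49.9 and 59.5 CPM in the same libraries, and at 8145 in inner medulla.

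The 4 outer medullary barcodes were a small set from a library that the inner medullary values did not use. They held 405, 387, 593 and 259 UMIs, with 5, 5, 5 and 1 UMIs of Cryab, 4, 2, 5 and 2 of Aqp1, and 2, 3, 2 and 4 of Bst1. Apela had 3, 5, 4 and 3 UMIs in them, together 9124 CPM, against 193 CPM in the other outer medullary cells. Timp3 had 1, 3, 6 and 0 UMIs, or 6083 against 1902 CPM. Sept4 gave 3 UMIs, Clic4 and Slc4a11 gave 2 each, and Spp1, Nupr1, Psca and Sptssb gave 0. At this number of UMIs a gene listed at 0 cannot be told from one at a low level.

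To place the members among the other inner medullary cells, the 803 barcodes were divided by a few UMI thresholds. Collecting duct barcodes, with Aqp2 at 1% of UMIs or more, numbered 411 and held 55.0% of the UMIs of the 803. There were 62 thick ascending limb, 90 proximal tubule, 39 endothelial and 201 unplaced barcodes. A single barcode of 19670 UMIs made up most of the endothelial sum. Any ratio of members to the other barcodes therefore weighs collecting duct most, and levels by kind of barcode are given beside it.

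Among genes outside the rule, 2131 had at least 15 UMIs and 100 CPM in either sum. Of these, 92 (4.32%) were at least 2-fold higher in members and 397 (18.6%) at least 2-fold lower. The calls are by size and are not a count of changed genes. The minimum of 15 UMIs also asks for a higher CPM in the smaller sum of the members. Their balance depends on the scaling: TMM factors shift every log2 ratio by -0.39 and give 54 higher and 732 lower genes, a share of higher calls of 6.87% in place of 18.8%. By interval and without those factors, the balance was the opposite. Over the 5737 genes with 15 UMIs in both sums together, 412 lay above 1 and 318 below. With TMM factors these counts were 205 and 649. Each of the 30 genes chosen by the size rule kept its side under TMM factors. Their choice by interval bounds far from 1 fixed this for a shift of that size.

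Secreted proteins were among the most abundant of the genes higher in members. Timp3, a matrix-bound inhibitor of metalloproteinases, had 171 UMIs in 44 members and 432 UMIs in 217 other barcodes, which is 3696 against 911 CPM and a ratio of 4.06 (3.38 to 4.86). Spp1, which encodes osteopontin, had 181 UMIs at 3912 against 753 CPM, 5.20-fold (4.32 to 6.23), but these UMIs came from 14 members. Its ratio was 4.31 without the barcode with the highest count, 38 UMIs, and 1.47 with the rule at 4% of UMIs, which leaves 21 members.

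Nupr1, a small nuclear protein induced by stress, was the most widely detected of the 15 genes chosen for being higher. It had 149 UMIs in 49 of 95 members and 184 UMIs in 112 of the other 803 barcodes, 3220 against 388 CPM, a ratio of 8.30 (6.64 to 10.4). Its level was 322 CPM in collecting duct, 320 in thick ascending limb, 36 in proximal tubule, 734 in unplaced barcodes and 773 in the low-gene barcodes, all below the members.

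Several of these 15 genes encode metabolic enzymes or their subunits. Hsd11b1, which regenerates active glucocorticoid, stood at 648 against 69.6 CPM, 9.32-fold (5.49 to 15.8). Most of its UMIs outside the members lay in proximal tubule barcodes, at 358 CPM, with 8.0 CPM in collecting duct. Phgdh, the first enzyme of serine synthesis, was 8.20-fold higher (4.32 to 15.4), and Degs1, which makes ceramide from dihydroceramide, 6.29-fold (3.75 to 10.4). Sptssb, a small subunit of serine palmitoyltransferase, had 17 UMIs in 7 members and 4 UMIs in 1 other barcode, a ratio of 43.6 (14.2 to 178) that came to 12.4 with no Aqp2 UMI allowed.

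Channels, pumps and transporters were also among them. Clic4, an intracellular chloride channel protein, had 32 UMIs in 20 members, 692 against 75.9 CPM, 9.11-fold (5.48 to 15.1). Atp2a2, the calcium pump of the endoplasmic reticulum, was 6.02-fold higher (3.60 to 9.89), and Slc31a2, a copper transporter, 5.26-fold. The remaining genes were Psca, a surface antigen also made by urothelium (26.2-fold, 11.7 to 64.3, in 8 members, but 1.91-fold with the rule at 4% and 61.9-fold at 1%), Ndrg4 (13.7-fold), the orphan nuclear receptor Nr2e3 (9.68-fold), the Rac regulator Chn2 (7.13-fold) and the septin Sept4 (6.56-fold). Sept4 had exactly 1 UMI in each of 16 members.

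**Figure D2:**
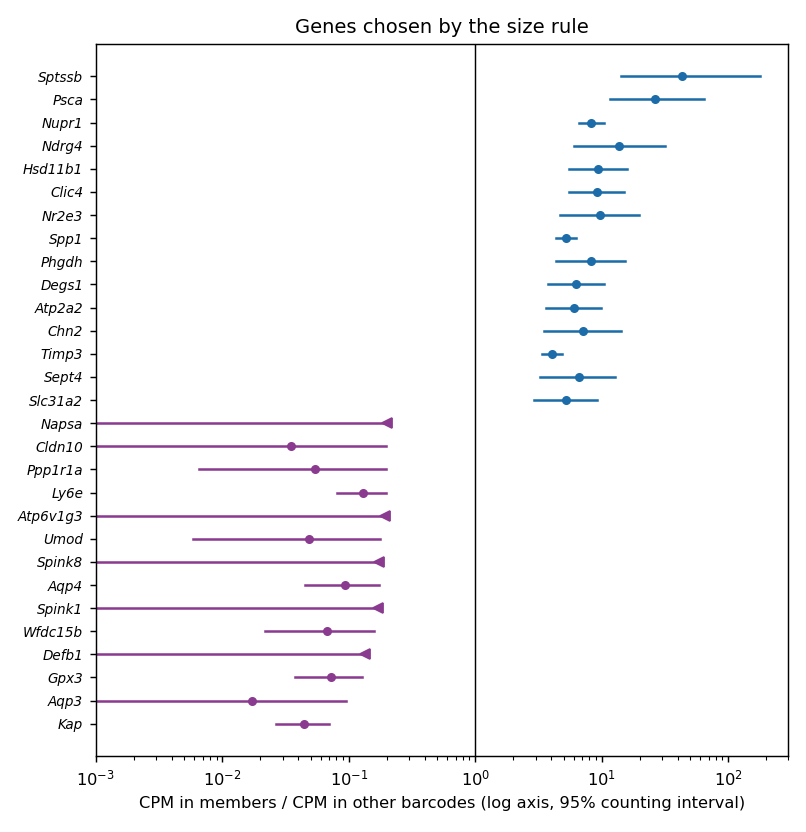
Ratio of CPM in the 95 members to CPM in the 803 other inner medulla barcodes (logarithmic axis) for the 15 genes chosen as higher (blue) and 14 of the 15 chosen as lower (purple), with 95% counting intervals; an arrowhead marks the upper limit where members had 0 UMIs, and intervals that reach below 0.001 end at the edge. The genes run from Sptssb at 43.6 to Kap at 19 UMIs in members against 4394.

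The 15 genes chosen for being lower include many known from other segments. Kap, an androgen-regulated proximal tubule transcript, had 19 UMIs in members and 4394 in the other barcodes, 22.6-fold lower (14.4 to 37.5). The antioxidant enzyme gene Gpx3 was 13.7-fold lower (7.84 to 26.6). Spink1, Spink8, Defb1, Napsa and Atp6v1g3 had 0 UMIs in members and 189 to 285 in the others, at least 4.95- to 7.49-fold lower by their intervals.

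The water channels of collecting duct were also low in members. The rule limits Aqp2, so low levels of genes found in the same barcodes are in part set by the selection. Aqp3, the basolateral water channel, had 1 UMI in members and 600 in the other barcodes, 58.5-fold lower with a wide interval of 10.5 to 2315. Aqp4, its companion, had 10 against 1088, 10.6-fold lower (5.75 to 22.2). The low-gene barcodes held 464 CPM of Aqp3, above the 21.6 CPM of members. The thick ascending limb genes Umod and Wfdc15b had 2 and 5 UMIs in members against 424 and 759. Ly6e, a surface protein gene, was 7.72-fold lower (5.08 to 12.4), and Ppp1r1a, a phosphatase inhibitor gene, had 2 UMIs against 378. Of the UMIs outside the members, 1 barcode held 210 for Wfdc15b and 1 barcode held 124 for Ppp1r1a.

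Marker lists of the neighbouring cell types were counted as whole sets. A gene was counted as measured with 15 UMIs over both sums. All 10 measured thick ascending limb markers and all 12 proximal tubule markers were lower in members, 7 of each with an interval below 1, at median log2 ratios of -2.64 and -3.10. Over all 5737 genes with that minimum, 2753 were higher and 2984 lower, 412 with intervals above 1 and 318 below, at a median of -0.04. The summed level of the proximal tubule list was 540 CPM in members, 12426 CPM in the others and 13769 in the low-gene barcodes, so that members held 3.92% of the share in low-gene barcodes. All 7 intercalated cell genes were at 0 UMIs in members, as were 10 of 11 immune, 8 of 9 interstitial and 12 of 16 endothelial genes, 4 of the last by the rule. The summed endothelial list nevertheless stood at 259 CPM in members and 287 in the others, and the interstitial list at 43.2 and 42.2 CPM. Esam, an endothelial adhesion gene, had 6 UMIs in members and was 3.42-fold higher (1.11 to 8.99), an interval that includes equality with TMM factors. The urothelial list went the other way, at 562 CPM in members and 23.2 in the others. Psca, its 1 measured gene, held 23 of its 26 UMIs in members. Upk3a had 2 UMIs against 1, and Upk2 1 against 0. The list stood at 1008 CPM in the members with Cryab alone and 164 in those with Aqp1 or Bst1.

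Of 14 measured collecting duct markers, 12 were lower in members and 10 of these had intervals below 1, with a median log2 ratio of -1.88. The rule limits Aqp2, and barcodes defined by Aqp2 held 55.0% of the UMIs of the others. Lower levels of genes found in those barcodes are thus in part set by the selection. Avpr2, the vasopressin receptor, had 2 UMIs against 201, and Hsd11b2, which inactivates glucocorticoid, 0 against 122. Fxyd4, whose product regulates Na,K-ATPase, stood 4.36-fold lower (3.32 to 5.84). The 2 markers that were higher were Rnf183, a ubiquitin ligase of the medulla, at 2.33-fold (1.57 to 3.38), and Cldn8, at 1.18-fold with an interval that includes equality, and the surface protein gene Plet1 was only 1.30-fold lower (1.04 to 1.64). The summed list stood at 5922 CPM in members, 24505 CPM in collecting duct and 6012 CPM in the low-gene barcodes. Whether free RNA accounts for the members' share was not tested.

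The thin limb list, without the rule genes, was higher in members for 5 of 7 measured genes, each with an interval above 1, at a median log2 ratio of 2.12. The list was drawn up with earlier results of these data known, so it is not independent evidence of a direction. Epha7, which encodes an ephrin receptor, had 7 UMIs in members and 8 in the other barcodes (8.97-fold, 2.77 to 28.3), and the transporter gene Slc4a11 13 and 27 (4.94-fold, 2.34 to 9.90). Cldn4, a tight junction claudin, was 3.60-fold higher (2.34 to 5.40). Slc14a2, the urea transporter gene used by both descending limb and collecting duct, had 3 UMIs in members and 142 in the others, 4.62-fold lower (1.55 to 22.7). It was thus found in at most 3 members at this depth.

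Members with Aqp1 or Bst1 were then set beside members with Cryab alone, since Aqp1 is the defining gene of the descending limb. There were 57 of the first kind with 24456 UMIs (median 395) and 38 of the second with 21815 UMIs (median 418.5). Of 592 genes outside the rule with enough UMIs, 121 (20.4%) were at least 2-fold higher with Aqp1 or Bst1 and 103 (17.4%) at least 2-fold lower. After thinning to 200 UMIs per barcode these counts were 37 and 17, and they are by size, with no value for what counting noise alone would give. TMM factors moved these ratios by 0.03 on the log2 scale. The split uses genes of the rule, and neither kind is replicated.

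Timp3 and Apela had the most UMIs of the 6 genes chosen as higher in the Aqp1 or Bst1 members. Timp3 had 152 UMIs in 35 of 57 barcodes and 19 UMIs in 9 of 38, 6215 against 871 CPM, 7.14-fold higher (4.42 to 12.2). Apela, which encodes a small secreted ligand of the apelin receptor, had 119 UMIs in 47 barcodes and 18 in 12, 4866 against 825 CPM, 5.90-fold (3.58 to 10.3). After thinning to 200 UMIs, Apela was seen in 59.1% of the first kind and 15.6% of the second, with 29.5% in collecting duct and 0.712% in proximal tubule. In the Cryab-only members both genes lay below the low-gene barcodes, which held 1781 CPM of Timp3 and 1435 CPM of Apela.

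Other genes of this side were scarcer. Nr2e3 had 17 UMIs in 10 barcodes and 0 in the Cryab-only members, at least 3.68-fold higher by its interval. Cald1, an actin-binding protein gene, had 12 and 0, at least 2.48-fold. Elovl7, a fatty acid elongase gene, had 29 and 2 UMIs (12.9-fold, 3.27 to 112), and Ndufb8, of respiratory complex I, 70 and 14 (4.46-fold, 2.49 to 8.57). Clic4 had 28 and 4 UMIs, 6.24-fold higher (2.18 to 24.5). The thin limb genes Slc4a11 and Epha7 had 12 and 7 UMIs in the Aqp1 or Bst1 members and 1 and 0 in the others.

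The evidence for the label of thin limb cells differed between the 2 kinds. The full thin limb list without the rule genes stood at 1799 CPM in the members with Aqp1 or Bst1 and 2017 CPM in the Cryab-only members. Of 3 genes of the list measured between the kinds (at least 10 UMIs over both sums), 1 was higher with Aqp1 or Bst1 and 2 were lower, at a median log2 ratio of -1.15. The higher gene was Slc4a11, and the lower genes were Sptssb and Cldn4. Over all 1066 genes with that minimum, 542 were higher and 524 lower, at a median of 0.03. The 38 Cryab-only barcodes have none of Aqp1 and Bst1 by construction, 0 UMIs of Epha7 and 1 of Slc4a11. They carried 16 UMIs of Sptssb and 22 of Cldn4. They are called Cryab-only barcodes here and are given no cell type name.

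Spp1 was detected on one side of the split. It had 0 UMIs in the 57 members with Aqp1 or Bst1 and 181 in the Cryab-only members, at least 54.4-fold lower in the first kind. The 14 Spp1 barcodes had 2 to 38 UMIs each, with a median of 12. Phactr1, a phosphatase and actin regulator gene, and Wnt4, a secreted Wnt ligand gene, had 0 UMIs against 19 and 17, at least 5.23- and 4.63-fold lower. Slc12a2, the basolateral sodium-potassium-chloride cotransporter gene, had 0 against 14, at least 3.72-fold lower. Tmsb4x, which encodes an actin-binding thymosin, had 18 against 119 (7.41-fold lower, 4.49 to 12.9), and Atp6v1a, a proton pump subunit gene, 1 against 19 (21.3-fold, 3.39 to 885).

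Several of these genes were also abundant in collecting duct barcodes. Levels in Cryab-only members and in collecting duct were 871 and 1791 CPM for Phactr1, 779 and 633 for Wnt4, 5455 and 8627 for Tmsb4x, and 2750 and 3790 for Plet1. The Aqp1 or Bst1 members had 0, 0, 736 and 1063 CPM of the same genes. Aqp4, in contrast, stood at 413 CPM in Cryab-only members and 3851 in collecting duct, and Fxyd4 at 458 and 8555. Fxyd4 was higher in the Aqp1 or Bst1 members, at 1758 CPM (3.84-fold, 1.90 to 8.56). Of 6 measured collecting duct list genes, 2 were higher with Aqp1 or Bst1, 2 with intervals above 1. The other 4 were lower, 3 with intervals below 1. Over all 1066 genes with the same minimum, 542 were higher and 524 lower. Spp1, at 8297 CPM in Cryab-only members, stood at 199 CPM in collecting duct and 2038 in thick ascending limb. Aqp2, limited by the rule, was at 779 CPM in the Cryab-only members and 450 in the others. Whether collecting duct RNA contributed to these barcodes was not tested.

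**Figure D3:**
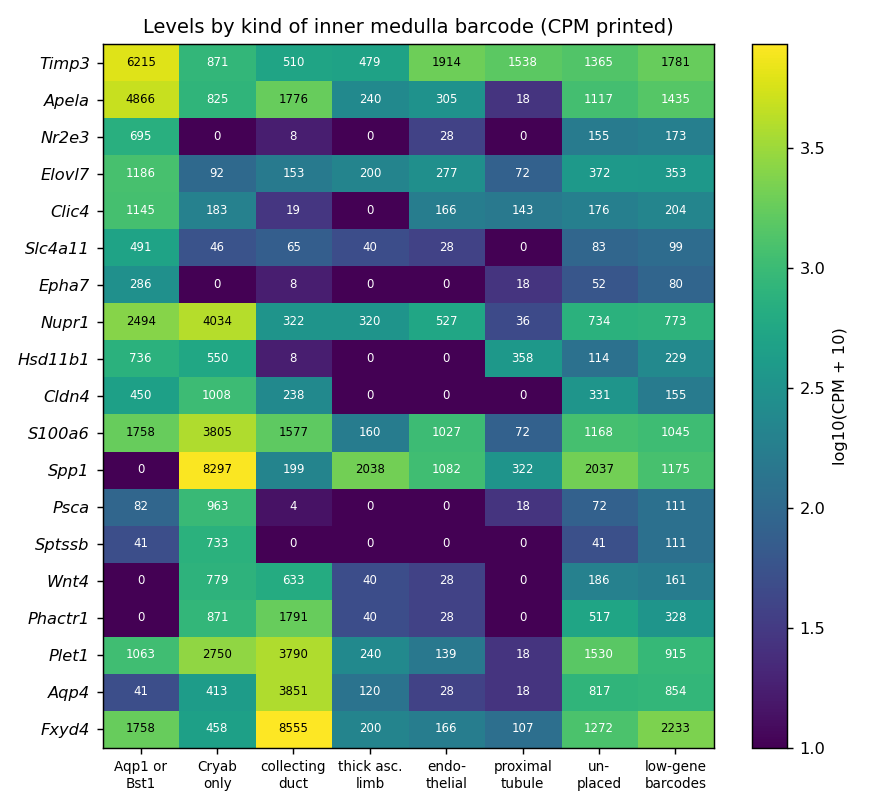
Levels of 19 genes (CPM, printed in each cell and coloured on a log10 scale of CPM plus 10) in the 2 kinds of members, in the other kinds of inner medulla barcodes and in barcodes with under 100 genes. Timp3 and Apela peak in members with Aqp1 or Bst1 at 6215 and 4866 CPM, Spp1 in Cryab-only members at 8297 CPM, and Fxyd4 in collecting duct at 8555 CPM.

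Nupr1 and Hsd11b1 were common to both kinds. Nupr1 had 61 UMIs in 27 of 57 barcodes and 88 UMIs in 22 of 38, 1.62-fold lower in the first kind (1.15 to 2.28). Hsd11b1 had 18 and 12 UMIs, 736 and 550 CPM, a ratio of 1.34 whose interval of 0.610 to 3.05 includes equality. Both levels of Nupr1, 2494 and 4034 CPM, were above every other kind of barcode in the library. Psca leaned to the Cryab-only members, with 2 against 21 UMIs (11.8-fold lower, 2.88 to 104), as did Sptssb, with 1 against 16 (17.9-fold lower, 2.79 to 752).

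**Figure D4:**
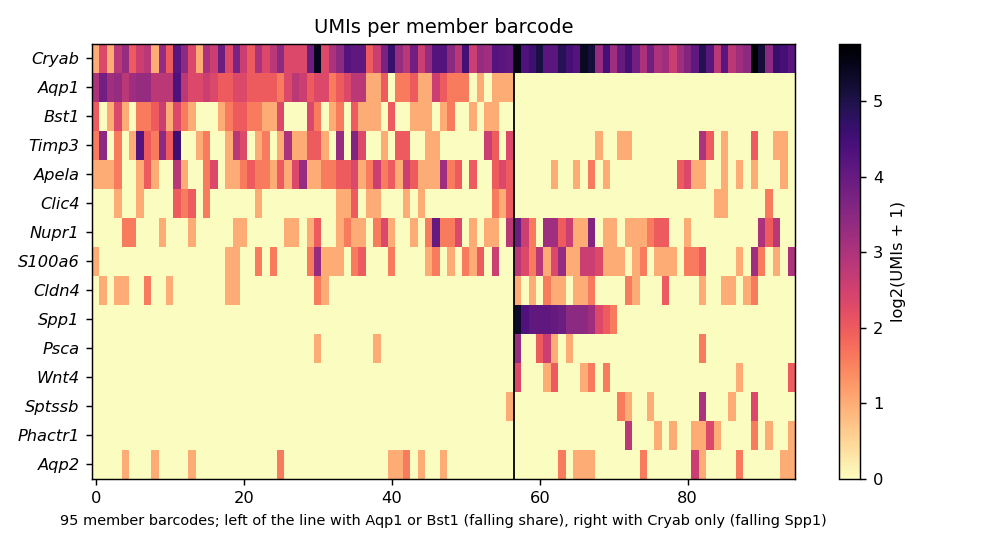
UMIs of 15 genes (rows, colour on a scale of log2 of UMIs plus 1) in each of the 95 member barcodes (columns). Left of the line are the 57 barcodes with Aqp1 or Bst1, ordered by their falling share, and right of it the 38 with Cryab alone, ordered by falling Spp1; Spp1 is at 0 on the left and marks 14 columns on the right, and Apela fills 47 columns on the left.

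Osmoprotective genes, which cover heat shock proteins and importers of organic osmolytes, were higher in members for 9 of 11 measured genes without Cryab. Of these, 4 had intervals above 1, and the median log2 ratio was 0.78, beside 2753 of 5737 genes higher in all. Members were chosen in part by Cryab, a gene of this list, and what that choice adds to the other genes was not tested. With TMM factors 7 of 11 were higher at a median of 0.40, with 2 intervals above 1 and 1 below; those of Hspa1a and Hsph1 then include equality. The median was -0.60 when members were chosen by Aqp1 and Bst1 in place of the sum of 3 genes. Hspa4l, an Hsp110 chaperone gene, was 5.70-fold higher (2.35 to 13), Hspa1a 2.34-fold (1.17 to 4.32), Hspb1 2.05-fold (1.39 to 2.95) and Hsph1 1.74-fold (1.14 to 2.57). The inositol importer Slc5a3 had a ratio of 1.07 (0.496 to 2.05), below 1 with TMM factors, and the taurine importer Slc6a6 2.48 (0.915 to 5.77); both intervals include equality.

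The chaperones did not follow Aqp1 within the members. A barcode without Aqp1 and Bst1 entered only with Cryab itself at 2% of its UMIs or more. Cryab belongs to this list, and whether that choice shapes the other genes of the list was not tested. Of 7 measured genes of the list, 6 were lower in the Aqp1 or Bst1 members, 4 with intervals below 1, at a median log2 ratio of -2.57. Over all 1066 genes with that minimum the median was 0.03, with 524 lower and 80 intervals below 1. Hspb1 had 5 UMIs against 31 (6.95-fold lower, 2.68 to 22.9), Hsph1 4 against 26 (7.29-fold, 2.53 to 28.7) and Sgk1, a salt-regulated kinase gene, 3 against 17 (6.35-fold, 1.84 to 33.8). Summed, the measured genes stood at 1145 CPM in the Aqp1 or Bst1 members and 4722 CPM in the Cryab-only members. The full list without Cryab stood at 1799 and 5134 CPM in the same 2 kinds, 2310 CPM in the other barcodes as a whole and 2497 CPM in collecting duct.

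The nucleus-encoded respiratory chain list had 29 of 30 genes lower in members, 22 with intervals below 1, at a median log2 ratio of -0.80 (-1.19 with TMM factors). Over all genes 2984 of 5737 were lower, 318 with intervals below 1. Cox4i1 was 1.85-fold lower (1.43 to 2.45), Ndufa4 2.01-fold (1.52 to 2.71) and Atp5b 1.75-fold (1.27 to 2.49). The exception was Ndufb8, 1.34-fold higher (1.06 to 1.69), still above 1 with TMM factors, though its interval then includes equality. Summed over all members, the list was not lower than in collecting duct, at 19451 CPM in members and 18947 in collecting duct. The Aqp1 or Bst1 members had 23266 CPM, above collecting duct, and the Cryab-only members 15173, below it. The list stood at 65726 CPM in thick ascending limb, 69776 in endothelial, 38013 in proximal tubule and 40730 in unplaced barcodes. Within the members, 20 of 27 measured genes were higher with Aqp1 or Bst1, 6 with intervals above 1.

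Cytoskeletal, S100 and annexin genes were higher in members for 11 of 19, 7 of them with intervals above 1, at a median log2 ratio of 0.63 (0.25 with TMM factors), beside 2753 of 5737 genes in all. The median was -0.12 with at least 300 genes per barcode, -0.19 with the rule at 4% and -0.20 when Aqp1 and Bst1 replaced the sum of 3 genes, so its direction depends on how members are chosen. S100a6, a calcium-binding protein gene, stood at 2723 against 1199 CPM (2.27-fold, 1.86 to 2.76) and Anxa2 at 1016 against 449 (2.26-fold, 1.61 to 3.11). Krt19 and Anxa3, with 8 and 7 UMIs in members, were 6.84- and 7.18-fold higher. Tmsb4x was 1.91-fold lower (1.61 to 2.28). The summed list was 16338 CPM in members, 15443 CPM in the others and 21310 in collecting duct. Between the kinds of members, S100a6 was 2.16-fold lower with Aqp1 or Bst1 (1.48 to 3.2).

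Transport genes were mostly lower, 12 of 16 without the rule genes, 9 with intervals below 1, at a median log2 ratio of -1.89. Atp1b1, which encodes the beta subunit of the sodium pump, was at 4884 against 4271 CPM, a direction that turns with TMM factors, and the pump regulator gene Fxyd2 at 5619 against 6183 CPM, both with intervals that include equality. A single other barcode held 667 of the 2933 Fxyd2 UMIs outside the members. Slc12a2 was 2.28-fold higher (1.18 to 4.11, an interval that includes equality with TMM factors), with all 14 UMIs in Cryab-only members. Slc12a1, the cotransporter gene of thick ascending limb, was 5.31-fold lower (2.55 to 13.3).

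Claudins seal the paracellular path, and 4 of 12 measured junction genes were higher, 1 with an interval above 1, at a median log2 ratio of -0.40. Cldn4 was that gene, with 33 UMIs in 25 members and 94 in the other barcodes. Cldn10, a claudin of thick ascending limb and proximal tubule, had 1 UMI against 291 (28.4-fold lower, 5.05 to 1125). Cldn8 had a ratio of 1.18 (0.868 to 1.57), which falls below 1 with TMM factors. Within the members Cldn8 was 2.68-fold higher (1.4 to 5.46) and Cldn4 2.24-fold lower (1.04 to 5.12) in those with Aqp1 or Bst1.

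Glycolytic genes had a median log2 ratio of -0.21 (-0.59 with TMM factors), 6 of 14 being higher, and turned to 0.08 with at least 300 genes per barcode and 0.11 with the rule at 1%. Pkm and Ldha were 1.86-fold (1.18 to 2.85) and 1.57-fold (1.11 to 2.17) higher, with intervals that include equality under TMM factors, while Ldhb, the other lactate dehydrogenase subunit, had 4 UMIs against 418 (10.2-fold lower, 3.95 to 37.6). Of the hypoxia genes 5 of 9 were higher. Hif1a, an oxygen-sensing transcription factor, was 2.61-fold higher (1.63 to 4.05), and P4ha1, a collagen hydroxylase, 4.01-fold (1.63 to 9.0). These were the 2 with intervals above 1. Ndrg1, the 1 gene with an interval below 1, had 0 UMIs in members against 70, at least 1.80-fold lower. The list median of 0.03 became -0.34 with TMM factors.

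**Figure D5:**
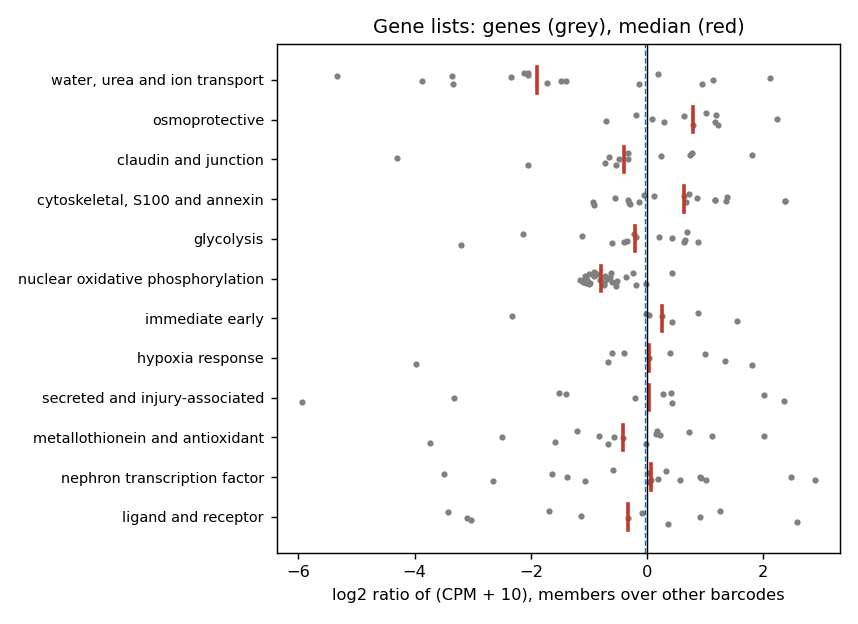
Log2 ratio of CPM plus 10 in members over other inner medulla barcodes for each measured gene (grey points) of 12 function lists, with the list median in red and the median of all genes, -0.04, as the dashed line. The oxidative phosphorylation genes lie tightly below 0 with a median of -0.80, the transport genes are spread widely around -1.89, and the osmoprotective median is 0.78.

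The remaining lists were mixed. Antioxidant genes were higher for 6 of 15, with Gstp1 4.22-fold (2.62 to 6.65) and Gpx4 2.20-fold (1.42 to 3.31) higher and the metallothionein gene Mt1 3.07-fold lower (1.90 to 5.31). Transcription factor genes were higher for 11 of 17 at a median log2 ratio of 0.07 (6 of 17 and -0.29 with TMM factors, and -0.35 with no Aqp2 UMI allowed), near the 2753 of 5737 genes higher in all. Bcl6 was 7.97-fold higher (2.52 to 24.1) and the collecting duct factor gene Gata3 3.45-fold lower (1.15 to 17.0). Immediate early genes had 5 of 7 higher at a median of 0.26, which turned to -0.12 with TMM factors; Jund was 1.84-fold higher (1.39 to 2.39). Secreted genes were even at 5 of 10 in each direction. Among ligand and receptor genes 7 of 11 were lower, including the prostaglandin receptor gene Ptger1 with 2 UMIs against 211, and Apela was 2.38-fold higher (1.97 to 2.88).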

How the data were processed

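Drop-seq libraries of mouse kidney regions were used, with cells digested by a cold-active protease and fixed in methanol, per the labels' protocols. The deposited tables hold UMI counts per gene symbol and barcode, whole numbers with no normalization. The submitters' processing notes name the build mm9 and the tool Seurat 2.3.1, without saying how each was used. For the aligner, the annotation and strand use, the sources used here give no statement. No coordinates are printed. Overlapping and near-identical genes are therefore uncertain.

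UMIs were summed over barcodes and divided by the total to give CPM. Ratios of sums carry exact conditional 95% intervals, levels exact Poisson and shares Clopper-Pearson intervals. Where a sum was 0, the least fold given is the near limit of the ratio interval. Shares of 0 in other libraries were also bounded with 3 counts set for 0. A gene was counted as higher or lower at 2-fold with 15 UMIs and 100 CPM in the higher sum. List medians are log2 ratios of CPM plus 10, which understate low genes. Named genes are the 15 per direction whose interval bound lies farthest from equality (6 between the kinds of members, with at least 10 UMIs). Mitochondrially encoded, ribosomal protein and haemoglobin genes were left out of that choice. The measured genes of 21 lists were named as well. A few list genes with fewer UMIs between the kinds of members, and Spp1 within the Cryab-only members, were named after their values were seen. A few genes that this rule names are not reported here. Members and lists were chosen with earlier results of these data known.

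Of the 803 other barcodes, collecting duct had Aqp2 at 1% and 2 UMIs. Thick ascending limb had Umod and Slc12a1 at 1% and 3 UMIs. Endothelial had 2 UMIs of the 4 endothelial rule genes. Proximal tubule had 6 marker genes at 1% and 3 UMIs. Thinned shares are expected shares at 200 UMIs. The calculation was checked on simulated counts. Python 3.11.15, numpy 2.4.6, scipy 1.17.1, scanpy 1.11.5 (Scrublet, expected rate 5%) and edgeR 4.0.16 (TMM factors only) were used.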

Additional observations from a re-analysis of the deposited data

How the results depend on the processing

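No paired analysis was possible because each region has 1 library. Genes counted higher and lower, 92 and 397 as reported, came to 61 higher with at least 300 genes per barcode, 9 and 738 with the rule at 4% of UMIs, 59 higher when Aqp1 and Bst1 at 2 UMIs replaced the sum of 3 genes, 54 and 732 with TMM factors, 23 higher with a minimum of 30 UMIs, and 2295 and 5941 with no minimum. Members were 15.1% of cells with the rule at 1%, 2.34% at 4%, 8.46% with no Aqp2 UMI allowed and 8.02% with the Aqp1 and Bst1 rule. At 4%, with 21 members, the medians of the immediate early, transcription factor and ligand and receptor lists were -2.46, -2.41 and -3.23. Under the Aqp1 and Bst1 rule, which shares 52 of its 72 barcodes with the members, the osmoprotective median was -0.60, the ligand and receptor median -3.29, and the ratios of Sptssb and Spp1 were 0 and 0.0301.

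Further alternatives were chosen after seeing the data. With members carrying Aqp1 or Bst1 alone, 52 genes were higher, the secreted and the ligand and receptor medians were -1.83 and -3.24, and the Spp1 ratio was 0. With Cryab-only members, 43 genes were higher and the ratios of Nr2e3 and Timp3 were 0 and 0.956. These sums hold fewer UMIs. Between the kinds of members, thinning to 200 UMIs left 37 genes higher and 17 lower, in place of 121 and 103, with fewer UMIs to count. Of 533 values for the 30 named genes under the alternatives, 5 changed side, all printed above, and others moved by over 1.5 times, among them Timp3 (2.25) and Nupr1 (5.02) at 4% and Psca (1.08) under the Aqp1 and Bst1 rule. Depth is one limit, since 46271 UMIs in the members put a gene with 3 UMIs at 64.8 CPM, and a gene at 0 may still be expressed below that level.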

Other observations

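Within the 38 Cryab-only members, the 14 barcodes with Spp1 differed in several genes from the 24 without it; this division was made after the values were seen and has no test. The Spp1 barcodes were deeper, with 11859 UMIs and a median of 688.5, against 9956 UMIs and a median of 314.5. Psca had 19 UMIs in the Spp1 barcodes and 2 in the others, Wnt4 13 and 4, the keratin gene Krt19 8 and 0, and Tmsb4x 93 and 26. Sptssb had 0 and 16 UMIs, Phactr1 0 and 19, and Aqp4 0 and 9. Nupr1 was found in both, with 60 UMIs in 12 barcodes and 28 in 10. Cryab had 332 and 376 UMIs, in every barcode of both sets.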
